A study of Mus musculus with 2 samples.

Results

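The genes described here are 8 members of the EF-hand superfamily that are used as neuronal calcium-binding proteins: the buffers Calb1 (calbindin), Calb2 (calretinin) and Pvalb (parvalbumin), the NECAB genes Necab1, Necab2 and Necab3, and the calcium sensors Hpca (hippocalcin) and Ncald (neurocalcin delta). They were picked by symbol from the 32285 genes of the count tables, and all 8 were present in both. The measurements come from the thalamus of 2 C57BL/6J mice, wildtype, untreated and aged 2 months, with 1 library of dissociated cells for each. Tissue was digested with a series of enzymes in a choline chloride solution and the cells were profiled with the V3 kit of the 10X Genomics 3′ system. The study has no second condition, so the comparisons are between cell types within the same animals.

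EF-hand proteins bind calcium in a helix-loop-helix fold. Buffers such as calbindin, calretinin and parvalbumin take up calcium that enters during firing and so shape the size and duration of calcium transients, and anatomists use them to tell thalamic nuclei apart: calretinin is a usual marker of midline nuclei and parvalbumin of the reticular nucleus. Sensors such as hippocalcin and neurocalcin delta change shape on binding calcium and move to membranes, where they act on other proteins. NECAB proteins carry an EF-hand region and a monooxygenase-like domain, and Necab2 protein is known to bind adenosine and metabotropic glutamate receptors.

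The 8 genes lie on 4 chromosomes of GRCm38 (GENCODE vM21). Calb1 (ENSMUSG00000028222) is on the plus strand of chromosome 4 at 15881264 to 15908064, and Necab1 (ENSMUSG00000040536) is on the minus strand of the same chromosome at 14952245 to 15149794. Hpca (ENSMUSG00000028785), also on chromosome 4, occupies 129111570 to 129122036 on the minus strand. Calb2 (ENSMUSG00000003657) is on the minus strand of chromosome 8 at 110137502 to 110168210, and Necab2 (ENSMUSG00000031837) is on the plus strand of that chromosome at 119446719 to 119472640. Necab3 (ENSMUSG00000027489) is on the minus strand of chromosome 2 at 154544399 to 154558890. Pvalb (ENSMUSG00000005716) and Ncald (ENSMUSG00000051359) are both on the minus strand of chromosome 15, at 78191114 to 78206400 and at 37366175 to 37792570. Necab3 overlaps the opposite-strand gene 1700003F12Rik, which was counted at 18.8 and 20.4 CPM in habenular-like neurons of mouse 1 and mouse 2, and the other counted genes that overlap a member reached at most 6.31 CPM in the neuron classes. The sources used here do not say whether strand entered the counting.

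Of the 3 neuron classes, Necab2 and Necab3 had their highest level in the habenular-like neurons, and Pvalb its lowest, so the 250 bases before the start of these 3 genes are shown. They are read 5′ to 3′ on the strand of the gene from the RefSeq promoter table (GRCm38.p6), and capitals mark GC boxes (GGGCGG) and E-boxes (CANNTG) on either strand.
Necab2, chr8:119446469-119446718, plus strand: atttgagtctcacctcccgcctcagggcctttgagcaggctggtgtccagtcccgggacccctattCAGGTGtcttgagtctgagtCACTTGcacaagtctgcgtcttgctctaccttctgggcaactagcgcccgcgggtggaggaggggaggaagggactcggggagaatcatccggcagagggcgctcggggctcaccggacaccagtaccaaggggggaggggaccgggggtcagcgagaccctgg
Necab3, chr2:154558855-154559104, minus strand: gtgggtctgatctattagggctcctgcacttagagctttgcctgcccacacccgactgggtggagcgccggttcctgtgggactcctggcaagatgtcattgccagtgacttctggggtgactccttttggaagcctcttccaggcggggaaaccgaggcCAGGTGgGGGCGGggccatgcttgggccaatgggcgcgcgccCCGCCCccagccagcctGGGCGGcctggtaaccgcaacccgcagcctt
Pvalb, chr15:78206401-78206650, minus strand: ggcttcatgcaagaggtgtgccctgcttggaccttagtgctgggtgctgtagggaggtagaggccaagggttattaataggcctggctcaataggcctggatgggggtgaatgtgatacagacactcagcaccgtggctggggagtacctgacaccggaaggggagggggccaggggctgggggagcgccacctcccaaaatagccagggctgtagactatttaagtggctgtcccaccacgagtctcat

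The Necab3 window holds 3 GC boxes, which begin 83, 48 and 31 bases before the start, and 1 E-box at 90 bases. The Necab2 window holds 2 E-boxes, at 184 and 164 bases, and no GC box, and the Pvalb window holds neither motif. Neither TATAAA nor the homeodomain core TAATTA occurs in any of the 3 windows. Among 32536 RefSeq windows of the same length, 33.0% hold a GC box, 66.2% an E-box, 12.3% TATAAA and 4.84% TAATTA. The windows of Necab2, Necab3 and Pvalb are 64%, 65.6% and 58.4% G or C, against a median of 52.4% over all windows. Of the 8 members, 4 had an entry in that table. The start of the Necab3 window lies 36 bases from the GENCODE start of the gene. These matches describe letters and do not show that a factor binds.

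The libraries of mouse 1 and mouse 2 held 163418203 and 204839993 UMIs in 7889 and 12107 barcodes, with a median of 15067 and 11837 UMIs per barcode, and shared 36 barcode sequences. After filters on genes, UMIs and mitochondrial share and the removal of 187 and 268 called doublets, 6179 and 9170 cells were kept, of which 534 and 2516 were in the neuron clusters. Reclustering the neuron-like cells gave 31 clusters: 7 habenular-like (141 and 397 cells in mouse 1 and mouse 2), 13 glutamatergic-like (260 and 1673 cells), 3 GABAergic-like (50 and 90 cells), 2 unresolved (39 and 198 cells), and 6 that mixed neuronal with other leading genes and whose 202 cells were left out of the classes. The names rest on marker lists, and the 8 genes, the other EF-hand genes listed and mitochondrial, ribosomal and hemoglobin genes were kept out of the clustering. Markers of other regions were checked in the classes: Neurod6 was at 0 in the glutamatergic-like and GABAergic-like neurons, and the 7 hippocampal or cortical genes summed to 1157 and 682 CPM in habenular-like, 252 and 275 CPM in glutamatergic-like and 31.1 and 72.5 CPM in GABAergic-like neurons, all 7 having UMIs in the habenular-like class. The 7 posterior hypothalamic or subthalamic genes summed to at most 7.81 CPM in any of these classes, and the 7 oligodendrocyte genes to 52.7 to 126 CPM. In 10 of the 31 clusters the median ribosomal share of UMIs was below 1%. Cells below that share made up 41.8% and 40.8% of habenular-like, 38.5% and 49.1% of glutamatergic-like and 12% and 23.3% of GABAergic-like cells. The part of these differences in the results that follow was not tested, except where values without such cells are given.

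Levels are CPM, the UMIs of a gene summed over the cells of a class or cluster in a mouse and scaled to a common total, so that each mouse gives 1 value. Means are given with the SD of the 2 mice, and a share of cells is the share with at least 1 UMI of the gene after each cell was thinned to 3000 UMIs, with exact 95% binomial intervals that cover counting error only. Median depth before thinning was 49605 and 27891 UMIs in habenular-like, 83218 and 42505 in glutamatergic-like, 46743 and 31982 in GABAergic-like neurons and 12974.5 and 9470 in microglia-like cells, a type that should not express these genes and whose shares serve as the background. Microglia-like shares lay between 0.202% and 3.84% over the 8 genes. Necab1 and Calb2 were the members whose microglia-like levels differed most between the mice: Necab1 stood at 2.17 CPM in mouse 1 and 13.3 CPM in mouse 2, and Calb2 at 3.44 and 16.4 CPM. Neuron-like cells were 8.64% of the kept cells in mouse 1 and 27.4% in mouse 2, and the part of free RNA in these low levels was not tested. Levels are not compared between genes, since 3′ counts depend on each transcript's own end.

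**Figure D1:**
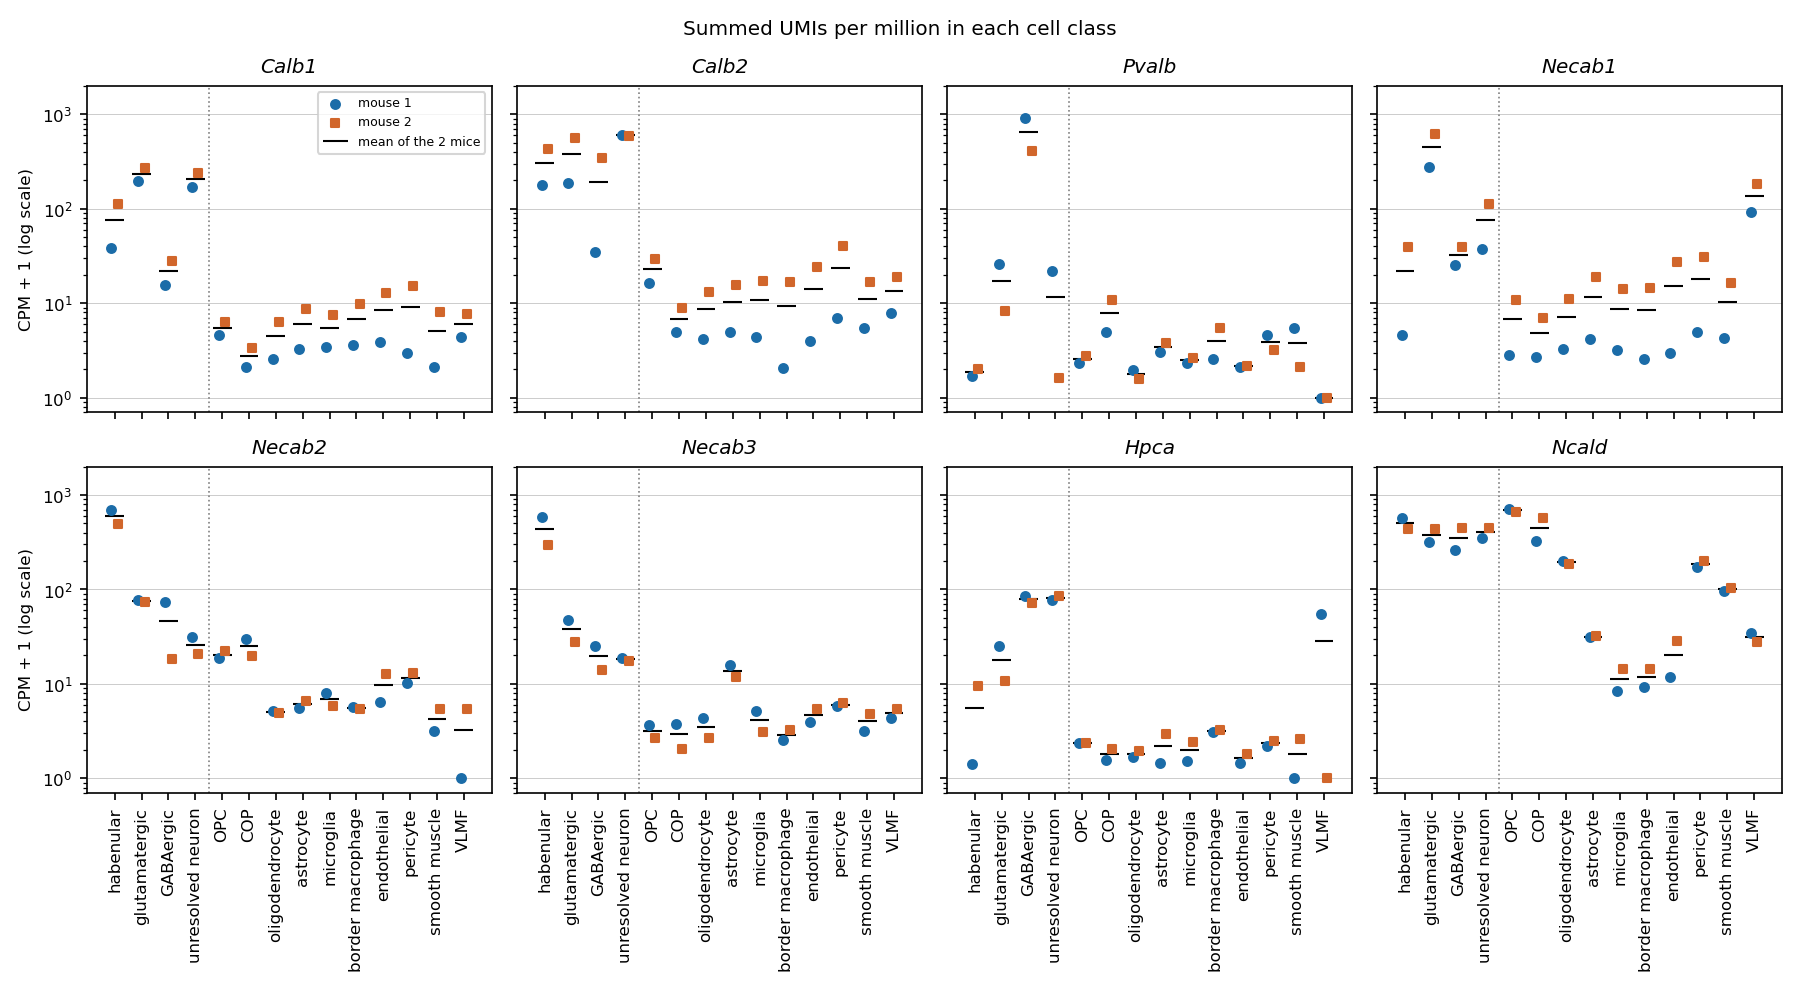
Level of each member as CPM + 1 on a log axis, for the neuron classes and the non-neuronal classes along the horizontal axis, with 1 point for each mouse and a bar at the mean of the 2 mice. Necab2 and Necab3 stand highest in habenular-like neurons, Necab1 and Calb1 in glutamatergic-like neurons, Pvalb in GABAergic-like neurons and Ncald in oligodendrocyte precursor-like cells.

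Calb1, the calbindin buffer, was a gene of the glutamatergic-like thalamic neurons in these cells. It was at 37.4 and 113 CPM in habenular-like neurons of mouse 1 and mouse 2, at 196 and 271 CPM in glutamatergic-like neurons, and at 14.6 and 27.0 CPM in GABAergic-like neurons. The glutamatergic-like values lie above those of both other classes in each mouse, with no overlap. After thinning, 32.3% (26.7 to 38.4%) and 38.1% (35.8 to 40.5%) of glutamatergic-like cells had a Calb1 UMI, against 6.12% and 6.74% of GABAergic-like and 0.98% and 2.02% of microglia-like cells. Without thinning the glutamatergic-like shares were 78.8% and 77.8%. Among the 8 neuron clusters with at least 20 cells in both mice, Calb1 was highest in cluster 0, a cluster with core relay markers (Tnnt1, Prkcd), at 321 and 421 CPM, and next in the unresolved cluster 9, at 275 and 313 CPM. It was lowest in cluster 8, medial habenula neurons of the Tac2 side, at 1.08 and 3.86 CPM. The spread within the medial habenula was wide: cluster 27, which carries markers of both the Tac1 and the Tac2 side and holds 5 and 14 cells, had 842 and 886 CPM of Calb1, the highest of all 31 clusters in both mice. In mouse 2 the 22 clusters with enough cells ranged over 3.86 to 557 CPM with a median of 92.0, and the highest of them was cluster 3, with midline thalamic markers, a cluster whose leading genes also include the immunoglobulin gene Igkc.

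Calb2, the calretinin buffer, had most of its UMIs in a few clusters, and its class averages hide that pattern. It stood at 178 and 432 CPM in habenular-like, 189 and 568 CPM in glutamatergic-like and 33.9 and 346 CPM in GABAergic-like neurons of mouse 1 and mouse 2. The ranges of the 3 classes overlap, and the level was higher in mouse 2 in each. After thinning, 11.3% and 36.9% of habenular-like, 15.4% and 29.4% of glutamatergic-like and 6.12% and 31.5% of GABAergic-like cells had a UMI, against 0.858% and 3.64% of microglia-like cells. Without thinning these neuronal shares were 34.0% and 60.2%, 37.3% and 58.4%, and 28.0% and 58.9%. The highest cluster by mean was cluster 4, with 5 midline thalamic markers and Igkc among its leading genes, at 3674 and 2489 CPM in 6 and 176 cells. It held 42.5% and 61.2% of the glutamatergic-like UMIs of Calb2, and 94.9% (90.5 to 97.6%) of its mouse 2 cells had a UMI after thinning. In the habenula, cluster 27 had 2925 and 2152 CPM and cluster 20, with lateral habenula markers, had 722 CPM in its 41 cells of mouse 2, whereas the medial habenula cluster 8 had 22.2 and 53.6 CPM. Cluster 16 of the GABAergic-like class, at 71.7 and 461 CPM, held 93.0% and 98.5% of that class's Calb2 UMIs. Cluster 3, the other large midline-like cluster, differed between the mice, at 1.43 CPM in the 6 cells of mouse 1 and 505 CPM in the 190 cells of mouse 2. Cluster 10, with Cbln1 and Cbln4 markers, did the same, with 2.12 and 162 CPM in 65 and 67 cells.

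Pvalb, the parvalbumin buffer, had its highest level in a single small GABAergic-like cluster. It stood at 0.717 and 0.995 CPM in habenular-like, 24.8 and 7.38 CPM in glutamatergic-like and 908 and 406 CPM in GABAergic-like neurons. The GABAergic-like values lie far above the others in both mice. Cluster 23, 10 and 23 cells with 6 prethalamic GABAergic markers (the group that includes the reticular nucleus), had 3397 and 1724 CPM from 2280 and 1204 UMIs. That was 98.9% and 96.6% of the GABAergic-like Pvalb UMIs, and 67.2% of the Pvalb UMIs of the 22 clusters of mouse 2. The median ribosomal share of this cluster was 0.366%, and the 7 oligodendrocyte genes summed to 121 and 262 CPM in it. All 10 cells of mouse 1 in that cluster and 56.5% (34.5 to 76.8%) of the 23 cells of mouse 2 had a UMI after thinning. The other GABAergic-like clusters were low. Cluster 16 has the same 6 prethalamic markers, together with 6 midbrain-type ones, but had only 22.4 and 18.9 CPM. Cluster 24, with midbrain-type markers, had none in its 17 and 7 cells. The prethalamic markers alone thus did not set the Pvalb-rich cluster apart. Among glutamatergic-like clusters, cluster 17, which has 6 core relay markers, stood out with 145 and 194 CPM in 28 cells of each mouse, above all 7 other clusters that were compared in both mice. In habenular-like cells, a Pvalb UMI was found after thinning in 0 of 141 and 0 of 396 cells, and without thinning in 2.84% and 2.52%. The microglia-like shares were 0.735% and 0.202% after thinning and 1.71% and 1.61% without it, at lower median depth.

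**Figure D2:**
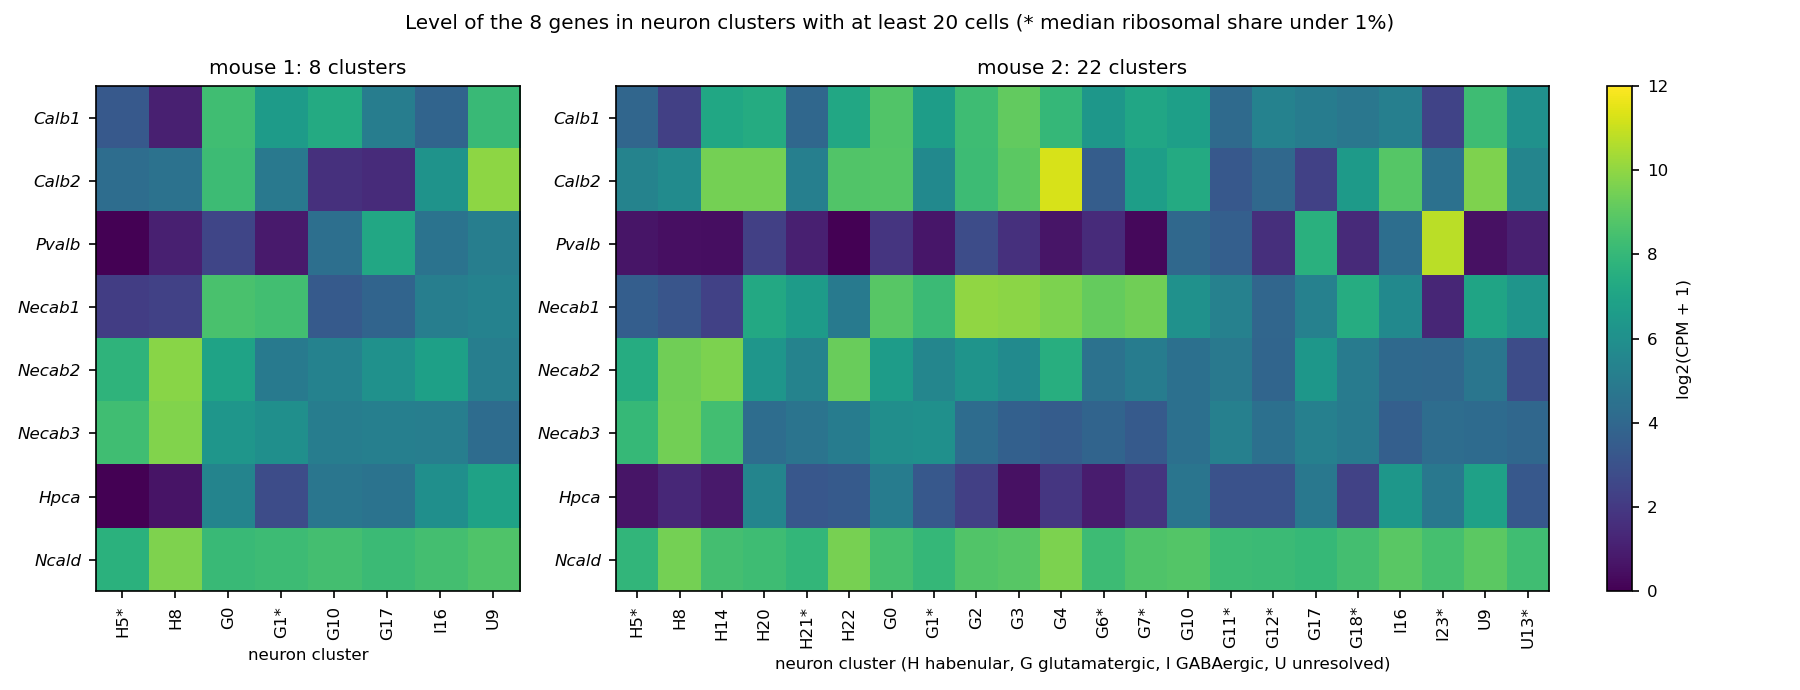
Level of each member as log2(CPM + 1), shown by colour, in the neuron clusters with at least 20 cells in that mouse, 8 in mouse 1 (left) and 22 in mouse 2 (right), with a letter for the class and an asterisk where the median ribosomal share was under 1%. In mouse 2 Pvalb is high in cluster 23, Calb2 in cluster 4, and Necab3 in the medial habenula clusters 5, 8 and 14.

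Necab1 was the NECAB of the glutamatergic-like neurons. It had 3.58 and 38.3 CPM in habenular-like, 274 and 619 CPM in glutamatergic-like and 24.4 and 38.7 CPM in GABAergic-like neurons. The glutamatergic-like values do not overlap with either of the other classes, while those others overlap with each other. After thinning, 31.9% (26.3 to 38.0%) and 61.6% (59.2 to 64.0%) of glutamatergic-like cells had a UMI, against 1.42% and 7.58% of habenular-like, 2.04% and 6.74% of GABAergic-like and 0.735% and 3.43% of microglia-like cells. The unthinned glutamatergic-like shares were 53.8% and 77.9%. Clusters 2 and 3 carried the most, cluster 2 (core relay markers) with 1052 and 1023 CPM and cluster 3 (midline markers) with 1096 and 972 CPM. Each has fewer than 10 cells in mouse 1, against 212 and 190 cells in mouse 2. The class levels of the 2 mice therefore rest on different mixes of clusters. The core relay-like cluster 17, in contrast, had 13.8 and 38.1 CPM and the Cbln1 and Cbln4 cluster 10 had 9.38 and 65.1 CPM, so the glutamatergic-like clusters differed among themselves.

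Necab2 and Necab3 were the NECABs of the habenular-like neurons. Necab2 stood at 695 and 489 CPM there, against 76.1 and 72.9 CPM in glutamatergic-like and 72.9 and 17.2 CPM in GABAergic-like neurons. Necab3 stood at 588 and 295 CPM in habenular-like neurons, against 47.0 and 27.1 CPM in glutamatergic-like and 24.4 and 13 CPM in GABAergic-like neurons. For both genes the habenular-like values lie above those of the other classes in each mouse. After thinning, 73.8% (65.7 to 80.8%) and 61.4% (56.4 to 66.2%) of habenular-like cells had a Necab2 UMI, against 18.1% and 15.2% of glutamatergic-like and 1.59% and 1.82% of microglia-like cells. For Necab3 the habenular-like shares were 69.5% (61.2 to 77.0%) and 44.2% (39.2 to 49.2%), against 10.4% and 7.81% of glutamatergic-like and 1.59% and 0.404% of microglia-like cells. Without thinning, 98.6% and 88.9% of habenular-like cells had a Necab2 UMI and 95% and 76.6% had a Necab3 UMI.

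The NECAB pair parted within the habenula. In cluster 8, of the Tac2 side, Necab2 reached 932 and 679 CPM and Necab3 857 and 707 CPM. In cluster 14, also of the Tac2 side, Necab2 was at 1069.7 and 805 CPM and Necab3 at 462 and 331 CPM. In cluster 22, which has Tac1-side markers and 1 and 40 cells, Necab2 was still at 597 and 617 CPM while Necab3 was at 10.1 and 31.8 CPM. In the lateral habenula-like cluster 20, the 41 cells of mouse 2 had 77.1 CPM of Necab2 and 18.5 CPM of Necab3. Cluster 27, which has markers of both sides, had 1216 and 714 CPM of Necab2 and 130.4 and 22.6 CPM of Necab3. Cluster 5, of the Tac2 side with 50 and 106 cells and a low ribosomal share, had 220 and 169 CPM of Necab2 and 322 and 261 CPM of Necab3. Necab2 was thus high in medial habenula clusters 8, 14, 22 and 27, which cover both sides, and lower in cluster 5. Necab3 was at its highest in clusters 8 and 14. Among glutamatergic-like clusters, the midline-like cluster 4 had the most Necab2, at 297 and 180.1 CPM, and cluster 0 had the most Necab3 of those compared in both mice, at 77.4 and 59.0 CPM, with overlap with its neighbour in that order, cluster 1.

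Hpca, the sensor hippocalcin, was a low gene in these neurons, and of the 3 classes it was highest in GABAergic-like cells. It had 0.43 and 8.59 CPM in habenular-like, 24.1 and 9.8 CPM in glutamatergic-like and 85.1 and 70.9 CPM in GABAergic-like neurons. The GABAergic-like values do not overlap with those of the other 2 classes, and the unresolved clusters, at 76.3 and 83.3 CPM, fall within the GABAergic-like range. The thinned shares were 0% and 1.77% in habenular-like, 6.54% and 2.76% in glutamatergic-like and 20.4% (10.2 to 34.3%) and 13.5% (7.17 to 22.4%) in GABAergic-like cells, against 0.245% and 0.202% in microglia-like cells. The midbrain-type GABAergic cluster 24 had 175 and 171 CPM in 17 and 7 cells, cluster 16 had 61.8 and 79.7 CPM, and the Pvalb-rich cluster 23 had 23.8 and 27.2 CPM. Hpca and Pvalb were thus highest in different GABAergic-like clusters. In the glutamatergic-like class, core relay-like cluster 0 had the most of the clusters compared in both mice, at 42.2 and 32.4 CPM, and midline-like clusters 3 and 4 stayed at or below 3.93 CPM.

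Ncald, the sensor neurocalcin delta, was present in all 3 neuron classes. It had 571 and 439.5 CPM in habenular-like, 315 and 438 CPM in glutamatergic-like and 258 and 447 CPM in GABAergic-like neurons, and these ranges overlap or nearly meet. Among clusters with enough cells in mouse 2 the lowest had 238 CPM, the median 347 and the highest 802, a narrower range, as a ratio, than for any other member. Cluster 8 of the medial habenula stood highest among the clusters compared in both mice, at 828 and 714 CPM, followed by unresolved cluster 9 at 414 and 504 CPM. Midline-like cluster 4, at 836 and 802 CPM, and habenular cluster 22, at 861 and 737 CPM, were as high as cluster 8 but had few cells in mouse 1. After thinning, 67.4% and 64.9% of habenular-like, 58.1% and 64.8% of glutamatergic-like and 49.0% and 67.4% of GABAergic-like cells had a UMI, against 1.59% and 3.84% of microglia-like cells.

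The order of the 8 clusters compared in both mice differed from gene to gene, and many neighbours in that order could not be told apart. For Calb1 the order was 0, 9, 10, 1, then 17, 16 and 5, each overlapping with the next of these 3, and last 8, with no overlap with 5. For Necab2 it was 8, 5, 0 and then 17, 16, 1, 9 and 10, which overlap in sequence. For Necab3 it was 8, 5, 0, 1, 17, 10, 16 and 9, with overlap of 0 with 1 and among the last 3. For Hpca, clusters 9, 16 and 0 led without overlap, and clusters 8 and 5 of the medial habenula were last and overlapped. For Calb2, cluster 9 led without overlap, and clusters 0, 16, 10, 1, 8 and 5 overlapped in sequence before cluster 17, the lowest.

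The class levels were then compared by edgeR's quasi-likelihood test on the sums of 13 classes in both mice, with class and mouse as terms, over 16944 genes. A gene was called where its Benjamini-Hochberg adjusted p was below 0.05 and its absolute log2 fold change at least 1. Each class has 1 sum per mouse, so the spread rests on 2 animals and is shared over the 13 classes. The sums of a class also differ in cluster makeup between the mice. Glutamatergic-like clusters 2, 3 and 4, for example, hold 9, 6 and 6 cells in mouse 1 and 212, 190 and 176 in mouse 2. The part of this makeup in the class differences was not tested. The classes were themselves drawn from clusters of the same cells, although none of the 8 genes was used to form them.

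Habenular-like neurons had more Necab2 and Necab3 than glutamatergic-like neurons and less Necab1, Calb1 and Pvalb. Of the 8 members, 5 were called, against 19% of all genes tested. By direction, 2 were higher, against 8.15% of all genes, and 3 lower, against 10.9%. Necab3 was higher by 3.45 ± 0.26 on the log2 scale (SE; adjusted p = 1.40e-08 by edgeR) and Necab2 by 2.87 ± 0.40 (adjusted p = 2.38e-05 by edgeR). Necab1 had a log2 fold change of -5.08 ± 0.52 (adjusted p = 5.83e-07 by edgeR), Pvalb of -4.09 ± 0.57 (adjusted p = 2.67e-05 by edgeR) and Calb1 of -1.99 ± 0.30 (adjusted p = 4.91e-05 by edgeR), and these 5 directions were the same in both mice. Without mouse as a block the Calb1 call was lost (adjusted p = 0.124 by edgeR). Pvalb was uneven over the glutamatergic-like clusters compared in both mice, from 145 and 194 CPM in cluster 17 to 0.844 and 0.652 CPM in cluster 1. Its habenular-like 0.717 and 0.995 CPM lay below the microglia-like 1.36 and 1.66 CPM. The comparison was not repeated without cluster 17. The remaining 3 did not pass: Hpca at -2.04 ± 0.81 (adjusted p = 0.078 by edgeR), Calb2 at -0.31 ± 0.39 (adjusted p = 0.649 by edgeR) and Ncald at 0.37 ± 0.32 (adjusted p = 0.465 by edgeR). The median log2 fold change was -1.15 over the members and -0.05 over all genes.

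Against GABAergic-like neurons, habenular-like neurons were higher in Necab3, Necab2, Calb1 and Calb2 and lower in Pvalb and Hpca. That made 6 of 8 members called, against 12.5% of all genes tested. By direction, 4 were higher, against 5.64% of all genes, and 2 lower, against 6.9%. Necab3 was higher by 4.65 ± 0.29 (adjusted p = 3.17e-09 by edgeR), Necab2 by 3.89 ± 0.43 (adjusted p = 4.10e-06 by edgeR), Calb1 by 1.85 ± 0.32 (adjusted p = 5.33e-04 by edgeR) and Calb2 by 1.31 ± 0.40 (adjusted p = 0.0335 by edgeR) on the log2 scale. Pvalb had a log2 fold change of -9.29 ± 0.61 (adjusted p = 1.22e-08 by edgeR) and Hpca of -4.00 ± 0.84 (adjusted p = 0.00244 by edgeR). Necab1, at -1.08 ± 0.49 (adjusted p = 0.172 by edgeR), and Ncald, at 0.69 ± 0.32 (adjusted p = 0.179 by edgeR), did not pass. All 6 called directions were the same in both mice. The Calb2 call was lost when the filters on cells were loosened to 200 genes and 500 UMIs (log2 fold change 0.59, adjusted p = 0.27 by edgeR), and with cluster 23 left out it was 0.98 (adjusted p = 0.115 by edgeR). Pvalb was at -4.01 without that cluster (adjusted p = 0.000447 by edgeR). Calb1 under the looser filter was at 0.76 (adjusted p = 0.47 by edgeR).

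Glutamatergic-like neurons were higher than GABAergic-like neurons in Calb1, Necab1, Calb2 and Necab3 and lower in Pvalb. Here 5 of 8 members were called, against 10.2% of all genes tested. By direction, 4 were higher, against 5.78% of all genes, and 1 lower, against 4.42%. Without mouse as a block in the fit, 2 of the 8 were called, Calb1 and Pvalb. Necab1 was higher by 3.99 ± 0.50 (adjusted p = 2.27e-05 by edgeR), Calb1 by 3.84 ± 0.34 (adjusted p = 4.72e-07 by edgeR), Calb2 by 1.63 ± 0.40 (adjusted p = 0.0105 by edgeR) and Necab3 by 1.20 ± 0.26 (adjusted p = 0.00419 by edgeR). Pvalb had a log2 fold change of -5.19 ± 0.46 (adjusted p = 8.58e-07 by edgeR), and without the 33 cells of cluster 23 it was at 0.22 (adjusted p = 0.85 by edgeR), so the call rests on that cluster. All 5 called directions were the same in both mice, and Calb2 was at 2.71 in mouse 1 and 0.90 in mouse 2 on the log2 scale. Hpca at -1.96 ± 0.74 (adjusted p = 0.103 by edgeR), Necab2 at 1.01 ± 0.40 (adjusted p = 0.122 by edgeR) and Ncald at 0.32 ± 0.32 (adjusted p = 0.64 by edgeR) did not pass.

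**Figure D3:**
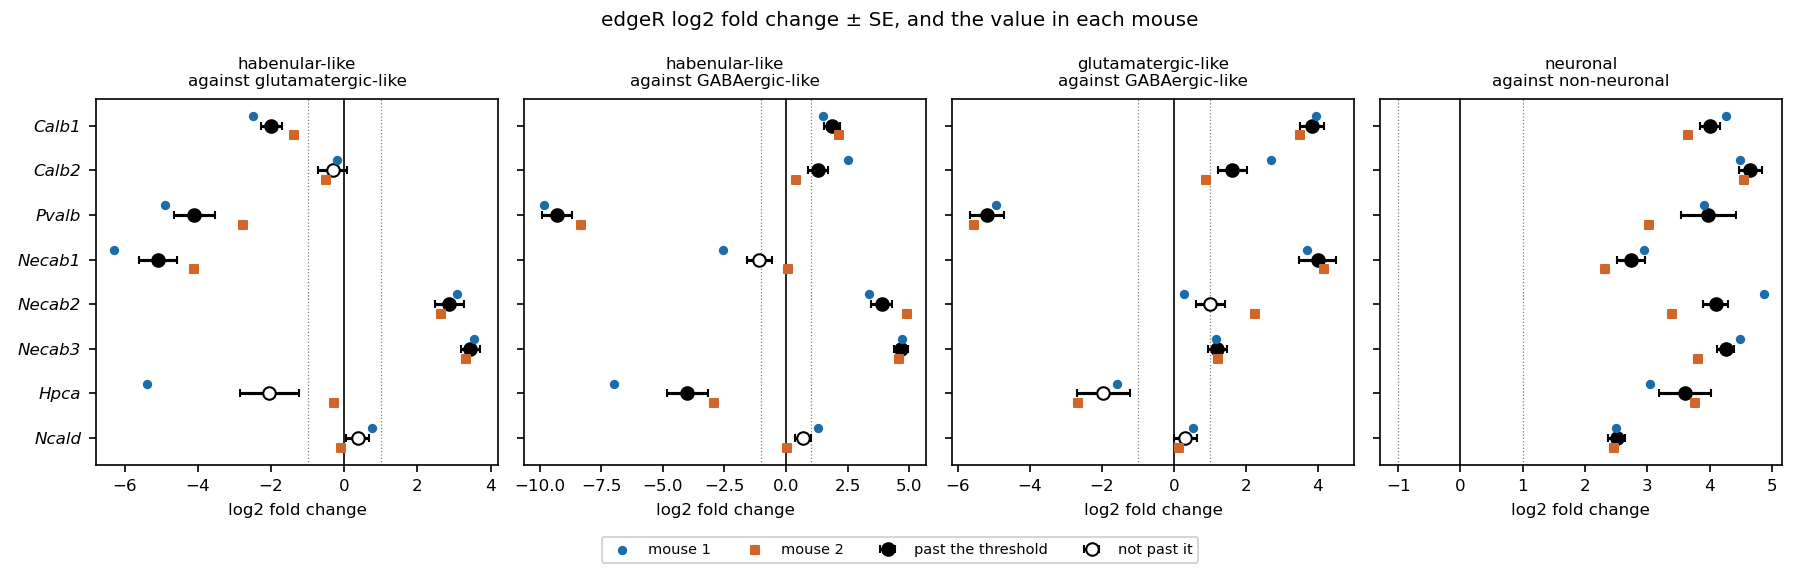
Log2 fold change of each member in the 4 comparisons, with bars of 1 SE from edgeR, filled black points for members that were called, open ones for those that were not, and small points for the value in each mouse; dotted lines mark a log2 fold change of 1 in either direction. Necab2 and Necab3 lie to the right in both habenular comparisons, and all 8 members lie to the right in the comparison of neuronal with non-neuronal classes.

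Averaged on the log scale, the 3 neuron classes were above the 10 non-neuronal classes in all 8 members. All 8 were called higher, against 24.7% of all genes tested. Not each neuron class was above: Pvalb in habenular-like neurons ranked 11 of the 13 classes by mean CPM. The log2 fold changes ran over 2.51 ± 0.14 for Ncald, 2.74 ± 0.23 for Necab1, 3.61 ± 0.41 for Hpca, 3.98 ± 0.44 for Pvalb, 4.01 ± 0.16 for Calb1, 4.09 ± 0.20 for Necab2, 4.25 ± 0.14 for Necab3 and 4.65 ± 0.19 for Calb2 (SE, edgeR). Without cluster 23, Pvalb was at 2.19 and still called. In the non-neuronal classes, 3 members were nonetheless far above the microglia-like background. Ncald had its highest level of all 13 tested classes in oligodendrocyte precursor-like cells, at 709 and 665 CPM (687 ± 31.3, SD, n = 2 mice), with 81.8% and 82.3% of cells positive after thinning. Committed precursor-like cells had 327 and 564 CPM of Ncald, oligodendrocyte-like cells 197 and 187 CPM, pericyte-like cells 170.1 and 201 CPM and smooth muscle-like cells 94.9 and 104 CPM, while astrocyte-like cells had 30.3 and 31.2 CPM and microglia-like cells 7.33 and 13.3 CPM. Ncald was thus found in the neurons and the oligodendrocyte lineage of these cells, and also in pericyte-like cells, whose values overlap with those of oligodendrocyte-like cells. Necab1 stood at 91.9 and 182 CPM (137 ± 63.5, SD, n = 2 mice) in vascular leptomeningeal fibroblast-like cells, from 27 and 81 UMIs, and 35.0% (15.4 to 59.2%) and 39.1% (25.1 to 54.6%) of those cells were positive. That is above its level in habenular-like and GABAergic-like neurons of the same mouse. Hpca had 54.4 CPM in the fibroblast-like cells of mouse 1, from 16 UMIs over 21 cells, and 0 in those of mouse 2, so that level rests on 1 library. Necab2 was at 29.1 and 18.9 CPM in committed precursor-like cells and 17.6 and 21.1 CPM in oligodendrocyte precursor-like cells, and Necab3 was at 14.8 and 10.8 CPM in astrocyte-like cells, each above the 5.92 and 3.12 CPM averaged in microglia-like cells.

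The wider EF-hand family was read from a list of 46 other genes, of which 41 were tested. Habenular-like against glutamatergic-like neurons, 7 of them were called higher and 13 lower, against the same 8.15% and 10.9% of all genes. Tesc (tescalcin, a regulator of a sodium/proton exchanger) was at 536 and 348 CPM in habenular-like neurons, against 5.38 and 12.7 CPM in glutamatergic-like neurons (log2 fold change 5.43 ± 0.45). Kcnip1, a calcium-sensing subunit of A-type potassium channels, was at 1560.1 and 956 CPM, against 23.3 and 103 CPM (4.36 ± 0.54). Its relative Kcnip4 went the other way, at 608 and 2604 CPM in habenular-like neurons, against 10459.9 and 13947 CPM in glutamatergic-like neurons (-3.66 ± 0.62). Of the other sensors, Hpcal1 was called higher (3.85 ± 0.38) and Vsnl1 lower (-4.33 ± 0.57), and the calcium channel regulator Cabp1 was higher (3.40 ± 0.34). The habenular-like neurons therefore differed in which buffers and sensors they carried, with calls in both directions in the sensor group, 2 higher and 5 lower of 9.

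Habenular-like against GABAergic-like neurons, 5 of the 41 were called higher and 8 lower, against 5.64% and 6.9% of all genes, with Tesc at 5.50 ± 0.48 and Vsnl1 at -3.98 ± 0.57 on the log2 scale. Glutamatergic-like against GABAergic-like neurons, 3 were called higher and 6 lower, against 5.78% and 4.42% of all genes, so that the higher count lay near its background, among them Kcnip4 at 3.41 ± 0.61 and Hpcal1 at -4.03 ± 0.38. Between neuronal and non-neuronal classes, 15 were called higher and 14 lower, against 24.7% and 14.7% of all genes. There 6 of the 9 sensors were higher and none was lower, while 7 of the 8 S100 genes were lower and none was higher. S100a6 was at 0.927 and 0.795 CPM averaged over the neuron classes, against 140 and 191 CPM over the non-neuronal classes (-6.06 ± 0.51). The matrix protein gene Sparc was at 8.55 and 2.03 CPM, against 765 and 756 CPM (-6.46 ± 0.35). These CPM are plain averages over classes, while the fold changes average the classes on the log scale.

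Co-expression was read in single cells thinned to 3000 UMIs, as the share of cells with UMIs of both genes beside the product of the 2 separate shares. Habenular-like neurons carried Necab2 together with Necab3: 57.4% (48.8 to 65.7%) and 33.6% (28.9 to 38.5%) had both in mouse 1 and mouse 2, with products of 51.3% and 27.1%. Necab2 with Ncald was in 56.0% and 43.9%, with products of 49.7% and 39.8%. Within cluster 8 alone, 89.6% and 75% had both Necab2 and Necab3 and the products were 89.8% and 71.9%, so inside that cluster the joint share lay close to the product. Calb1 and Calb2 met in 2.84% and 11.6% of habenular-like cells, with products of 0.322% and 5.68%, and 75.4% of the Calb1-positive cells of mouse 2 had Calb2 as well. Calb1 and Necab3 met less than their product, in 0% and 3.54%, with products of 1.97% and 6.81%. In mouse 1 these Calb1 pairs rest on 4 of 141 cells with a Calb1 UMI, so no order is read there. At 2000 UMIs Calb1 and Necab3 met in 1.42% of the mouse 1 cells. In the habenular-like cells of mouse 2 Calb1 thus met Calb2 more, and Necab3 less, than the products.

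In glutamatergic-like neurons the pair Calb1 and Necab1 was in 15.4% and 29.8% of cells, with products of 10.3% and 23.5%. Of the cells with Calb1, 47.6% and 78.1% had Necab1. Calb2 and Necab1 met in 11.5% and 24.6%, with products of 4.91% and 18.1%. Inside core relay-like cluster 0 the Calb1 and Necab1 pair was in 32.4% and 41.5% of cells, with products of 23% and 37.1%. In the midline-like clusters of mouse 2 the joint share lay within 3 percentage points of the product: in cluster 3, 75.3% of cells had Calb1 and Necab1, with a product of 74.2%, and in cluster 4, 85.8% had Calb2 and Necab1, with a product of 83.6%. Of the 28 pairs of members, 6 in habenular-like, 16 in glutamatergic-like and 5 in GABAergic-like neurons were above their product in both mice, and 3, 7 and 12 were below it in both. The remaining 19, 5 and 11 were not on the same side in both. No background was computed for these counts, and those of the GABAergic-like class rest on 49 and 89 cells.

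Among GABAergic-like neurons, cells with both Calb2 and Pvalb were few and their count depended on the thinning. At 3000 UMIs 0 of 49 and 0 of 89 cells had both, where the products were 1.37% and 4.6%. At 2000 UMIs the joint share was 0% and 1.11%, and at 5000 UMIs 0% and 2.27%. Pvalb and Hpca were likewise in no cell together at 3000 UMIs, with products of 4.58% and 1.97%, but met in 4% and 1.11% of cells at 2000 UMIs and in 2.04% and 1.14% at 5000 UMIs. With so few cells, no order of the joint share and the product can be read for either pair. A habenular-like cell carried on average 2.26 and 2.32 of the 8 members after thinning, a glutamatergic-like cell 1.77 and 2.21, a GABAergic-like cell 1.22 and 1.48 and a microglia-like cell 0.0833 and 0.156.

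**Figure D4:**
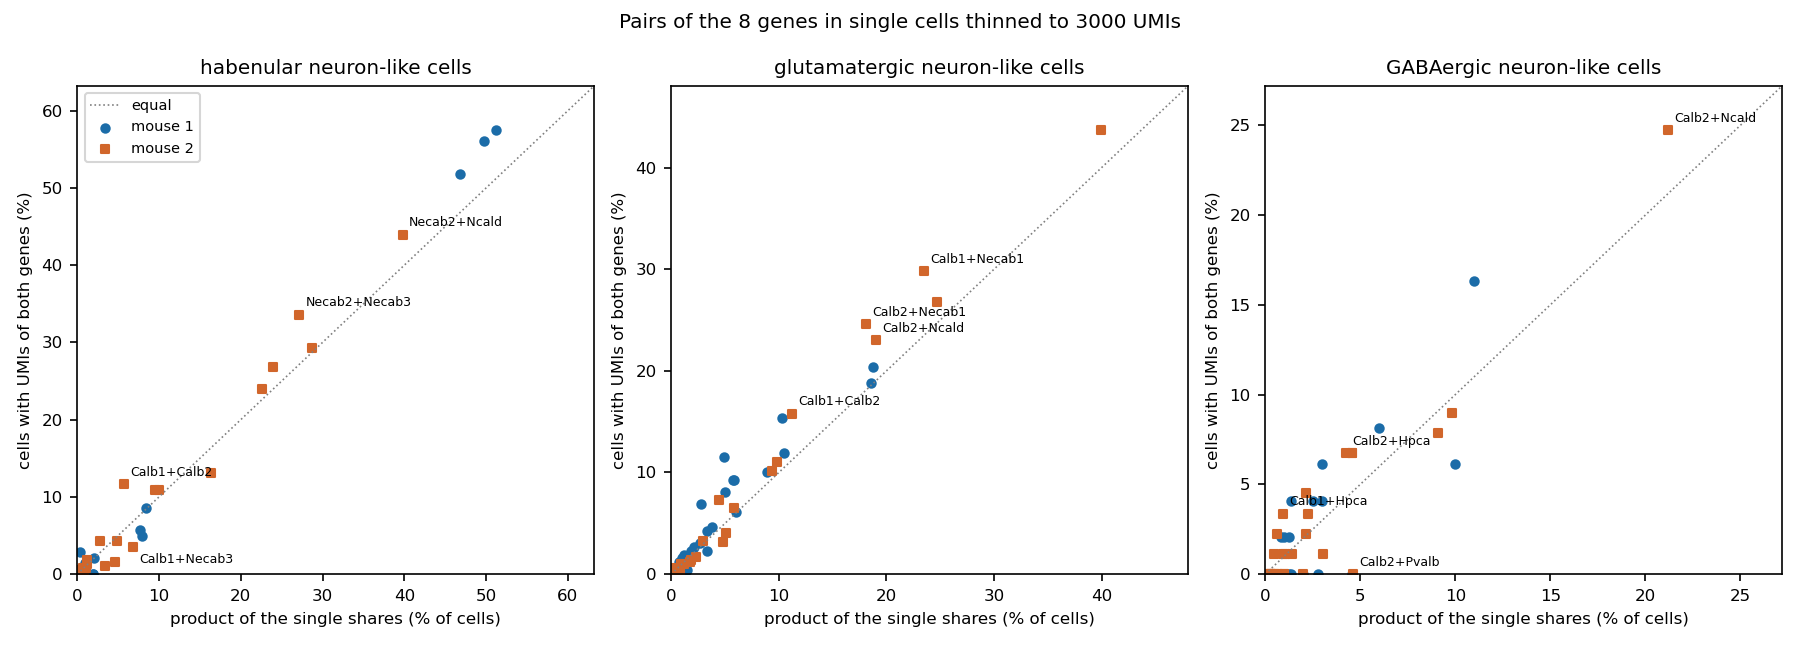
Share of thinned cells with UMIs of both genes against the product of the 2 separate shares, both in percent, for the 28 pairs in the habenular-like, glutamatergic-like and GABAergic-like classes, with 1 point for each pair and mouse and a dotted line of equality. Necab2 with Necab3 lies above the line in habenular-like cells and Calb1 with Necab1 lies above it in glutamatergic-like cells.

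Across clusters the same pairs ranked together. Over the 8 clusters compared in both mice, Pearson's r of log2(CPM + 1) was 0.93 between Necab2 and Necab3 and 0.80 between Calb1 and Necab1, and over the 22 clusters of mouse 2 it was 0.68 and 0.70. Calb1 and Calb2 had 0.49 and 0.67. Necab1 and Necab3 ran the other way, at -0.49 and -0.55, and so did Necab3 and Hpca, at -0.91 and -0.34. The clusters come from the same libraries and share depth and ribosomal content, and these values are descriptions with no test. The genes most like each member over the 8 clusters, of 5767 candidates, were Dap, Cnst and B3gat1 for Necab3 (0.97 or more), Ctnnbip1, Dyrk2 and Rap1b for Necab2 (0.96 or more), and Ccdc91, Vamp1 and Kcnab3 for Pvalb (0.90 or more). The Pvalb-rich cluster 23 is not among the 8. The 22 clusters of mouse 2 include the 8, so values over the 22 are not an independent check. Over the 22, the genes named for Necab2 and Necab3 had 0.80 or more, as had Spint2 with Calb2 at 0.93. Others were far lower over the 22. Homer1, the gene most like Calb1 over the 8 clusters at 0.93, had -0.05, and Brd1 with Necab1 went from 0.96 to 0.25. Ccdc91 with Pvalb went from 0.95 to 0.21, and Brd7 with Hpca from 0.98 to 0.15.

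Clusters that shared subtype markers but differed in ribosomal share differed in some members and not in others. Cluster 1 and cluster 0 both have 4 core relay markers, with a median ribosomal share of 0.187% and 0.228% in cluster 1, against 1.66% and 2.46% in cluster 0. Cluster 1 also had a higher median mitochondrial share, 4.93% and 5.12%, against 3.36% and 1.89%, and fewer UMIs per cell, 66875 and 22904, against 96670 and 59353. Calb2 was at 27.4 and 50.2 CPM in cluster 1, against 299 and 445 CPM in cluster 0, log2 differences of -3.40 and -3.12, where the median of the 7276 genes above 20 CPM was -0.41 and -0.26. Of those genes, 5.54% and 3.23% were lower by 3 or more. Hpca, at 5.9 and 8.96 CPM against 42.2 and 32.4 CPM (-2.65 and -1.75), and Calb1, at 95.3 and 103 CPM against 321 and 421 CPM (-1.74 and -2.02), were also lower. Necab2 was at 29.9 and 44.6 CPM, against 123 and 96.6 CPM (-2.0 and -1.10). Necab3, at 62.8 and 64.5 CPM against 77.4 and 59.0 CPM (-0.30 and 0.13), and Necab1, at 330.2 and 285 CPM against 374 and 476 CPM, lay closer together.

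The medial habenula gave a second such pair, cluster 5 and cluster 8, with 0.218% and 0.233% ribosomal UMIs in cluster 5, against 3.66% and 3.76% in cluster 8. Its median mitochondrial share was 7.07% and 7.08%, against 6.01% and 4.06%, and its cells had 36062.5 and 14027 UMIs, against 56526 and 32587.5. Cluster 5 had 220.1 and 169 CPM of Necab2, against 932 and 679 CPM in cluster 8, log2 differences of -2.08 and -2.0, where the median of 7253 genes was -0.32 and -0.34 and 20.7% and 19.6% of them were lower by 2 or more. Ncald followed with 204 and 238 CPM, against 828 and 714 CPM (-2.01 and -1.58), and Necab3 with 322 and 261 CPM, against 857 and 707 CPM (-1.41 and -1.44), at the 29.7th and 28.9th percentile of those genes, so shifts of this size were common in this pair. Calb2 differed by -0.22 and -0.39 in this pair. Necab2 was thus lower in the low-ribosomal cluster of both pairs, at percentiles between 17.1 and 28.5, so many genes shifted as much. Calb2 differed by over 3 on the log2 scale in the core relay-like pair. Over whole classes, which differ in their cluster makeup as well, Calb2 was lower in the cells below 1% ribosomal UMIs by log2 differences of -3.83 and -3.91 in habenular-like, -3.89 and -4.12 in glutamatergic-like and -2.83 and -3.64 in GABAergic-like neurons. What sets the ribosomal share apart was not tested.

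**Figure D5:**
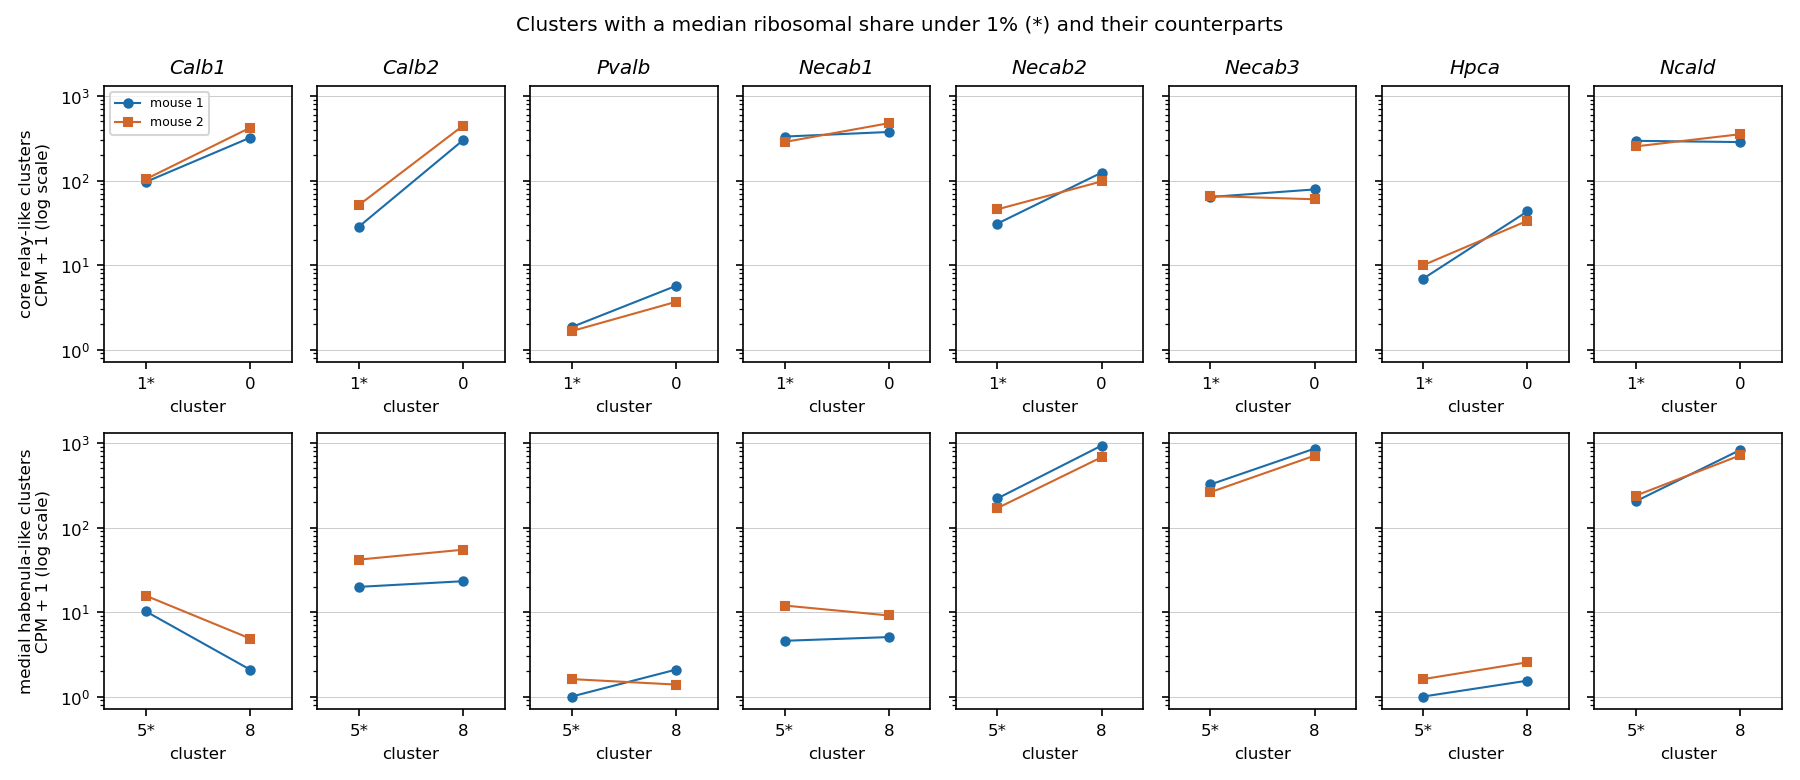
Level of each member as CPM + 1 on a log axis in the low-ribosomal clusters and their counterparts, cluster 1 beside cluster 0 (core relay-like) and cluster 5 beside cluster 8 (medial habenula-like), with 1 point for each mouse. Calb2 is far lower in cluster 1 than in cluster 0, and Necab2 and Ncald are lower in cluster 5 than in cluster 8.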

How the data were processed

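Single-cell RNA libraries of thalamus from 2 wildtype mice, 1 library per animal, were analysed from the deposited UMI count tables, which hold whole-number counts per gene and barcode. Genome build mm10, Cell Ranger 7.1.0 and Seurat 5 are named, per the submitters' processing notes, with no role stated. The sources used here do not say whether introns or strand entered the counts. The 8 genes and the gene lists were chosen with earlier results of these data known. Barcodes with at least 500 genes, 1000 UMIs and at most 15% mitochondrial UMIs were kept, and doublets called by scrublet (2.94% and 2.84%) were removed. Cells were clustered with scanpy 1.11.5 on 2000 variable genes, 30 principal components, 15 neighbours and Leiden resolution 1, and neuron-like cells were clustered again. None of the members and of the other EF-hand genes listed was among these variable genes. Names come from marker lists, and doublet calls and names may differ from those of the study. UMIs were summed per class and mouse and tested with edgeR 4.0.16 (R 4.3.3; TMM, filterByExpr, robust quasi-likelihood fit, Benjamini-Hochberg adjustment over 16944 genes, 12 residual degrees of freedom), with mouse as a block, since the same 2 animals gave all classes. All 8 members passed the filter on low counts. On simulated counts for glutamatergic-like against GABAergic-like neurons over 16638 genes, 82% of genes set to a log2 fold change of 1.5 in either direction and 99% of those set to 3 were recovered. All 8 members are named throughout, and of the other EF-hand genes up to 4 per comparison and direction with the largest changes among those called and above 50 CPM in a group were eligible. Alternatives were the scaling, the tool (DESeq2 1.42.0), the filters on genes and cells, the block, the clustering resolution, leaving out each mouse and, added after the data were seen, leaving out low-ribosomal clusters, low-ribosomal cells or cluster 23. Intervals cover counting error only.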

Additional observations from a re-analysis of the deposited data

Results flagged for a closer look

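Calb2 in the 2 unresolved neuron clusters, which enter no class comparison, averaged 598 CPM (599 in mouse 1 and 597 in mouse 2), above all 13 tested classes in each mouse. These clusters hold 39 and 198 cells. The larger, cluster 9, is led by Sst, Pth2, Tfap2d and Tac1 and had 982 and 828 CPM of Calb2, 275 and 313 CPM of Calb1 and 118 and 114 CPM of Hpca, the last its highest level among the 8 clusters compared in both mice. After thinning, 56.5% and 64.4% of its cells had a Calb2 UMI, against 0.858% and 3.64% of microglia-like cells, with median depths of 43880 and 36465 UMIs in the cluster and 12974.5 and 9470 UMIs in microglia-like cells. The smaller, cluster 13, has a low ribosomal share, is led by Gad1, Gad2 and Otx2os1, and had 18.9 and 43.5 CPM of Calb2.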

How the results depend on the processing

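Of 448 member fold changes recomputed under the alternatives, 418 kept their direction and their side of the threshold and 5 changed sign. Of the rest, 15 no longer passed the threshold and 10 newly passed it. With 1 mouse left out there is no test, and the threshold is the fold limit alone. Of that kind are 2 of the 15 (without mouse 1), and 2 (without mouse 1) and 4 (without mouse 2) of the 10. Without the replicate block, 2 members were called between glutamatergic-like and GABAergic-like neurons in place of 5, 4 in each habenular comparison and 8 between neuronal and non-neuronal classes. The member counts ran over 4 to 7 for habenular-like against glutamatergic-like, 4 to 8 for habenular-like against GABAergic-like and 2 to 6 for glutamatergic-like against GABAergic-like neurons. Counts with 1 mouse left out carry no test. The Pvalb difference of glutamatergic-like from GABAergic-like neurons was 0.48 (log2) without low-ribosomal clusters, which hold cluster 23, and 0.22 without cluster 23 alone. Calb2, habenular-like against glutamatergic-like, was 0.42 at a mitochondrial limit of 5% (adjusted p = 0.56 by edgeR). With 1 mouse left out, Ncald in that comparison ran over -0.10 (without mouse 1) to 0.76, and Necab1, habenular-like against GABAergic-like, over -2.57 to 0.065 (without mouse 1). Calb2, habenular-like against GABAergic-like, was not called with size factors (adjusted p = 0.054 by edgeR), in DESeq2 (adjusted p = 0.073) or with no gene filter (adjusted p = 0.071 by edgeR). Necab3, glutamatergic-like against GABAergic-like, fell below the fold limit without low-ribosomal cells (0.97). Each of the 144 gene counts stayed within 1.5 times its main value. Of the 24 checks of the highest cluster, 17 kept the cluster and level; with clusters of at least 50 cells in both mice, clusters 9 and 17 were no longer compared. Of the single-gene shares, 75 of 168 at 2000 UMIs and 94 of 168 at 5000 UMIs moved by more than the SD of the 2 mice. For pair shares the counts were 25 of 84 and 39 of 84. Leaving out 1 mouse cannot decide stability here, since with 2 mice each single value always lies within that SD of their mean. The small classes, such as the GABAergic-like one with 50 and 90 cells, limit the precision of shares.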
